A study of Mus musculus with 192 samples.

Results

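Dendritic cells grown from mouse bone marrow were given LPS and SeV together, and the pair was compared with each of the 2 ligands given alone. The comparison rests on 9 libraries, 3 of LPS + SeV, 3 of LPS and 3 of SeV, taken by their labels from a series of 64 groups of 3 libraries. Another 3 libraries of cells with no ligand, labelled Ctrl, gave the baseline. Further groups given PAM, HMW, Zymosan, cGAMP or CpGB, named here as labelled, singly or in combinations, are used where stated. All groups came from cells of female C57BL/6J mice aged 6 to 8 weeks, grown in medium with GM-CSF at 15 ng per mL, plated at 100000 cells a well and harvested after 6 h of stimulation. The ligand doses are not given in the sources used here, and no label says whether replicates came from separate mice. The p-values therefore measure the spread between these libraries, which may be technical.

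LPS is the lipopolysaccharide of Gram-negative bacteria. It is sensed by Tlr4 with Cd14, and Tlr4 signals through Myd88 toward NF-kB and cytokine genes and through Ticam1 toward Irf3 and interferon beta. SeV is the usual abbreviation of Sendai virus, an RNA virus whose genome copies are sensed in the cytosol, mainly by Ddx58 (RIG-I), which signals through Mavs to Irf3, Irf7 and NF-kB. Both routes end in secreted interferon, which acts back on the cells through its receptor and turns on a shared antiviral set, so overlap between the ligands can be asked gene by gene.

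The libraries held 61823 to 229979 unique molecular identifiers (UMIs, each standing for 1 captured mRNA molecule): 168752 ± 43647 (SD, n = 3) in LPS + SeV, 182666 ± 48330 in LPS, 141420 ± 53751 in SeV and 73431 ± 14389 in Ctrl. Levels are CPM (UMI counts scaled to a fixed library total) adjusted by the TMM factor of each library, so 1 molecule was worth about 4 to 14 CPM and genes under about 50 CPM rest on few molecules. Of 23481 genes, 4720 passed the filter on low counts and were tested together. Without that factor, the summed level of 6 dendritic cell markers lay from 2869 to 3413 CPM and was carried by H2-Ab1 and Cd74. Itgax stood at 494.8 CPM in Ctrl, 330 in SeV, 270 in LPS and 225 in LPS + SeV. Flt3 held 1 to 5 counts a group, Zbtb46 0 to 2 and Cd209a 0. The summed level of the 6 of 7 macrophage and monocyte markers in the table was 13030 to 14840 CPM in Ctrl, 10900 to 11380 in SeV, 7649 to 7848 in LPS and 7833 to 8035 in LPS + SeV. Neutrophil and precursor markers, led by S100a9, S100a8 and Ngp, summed to 681 to 1087 CPM over the groups. T, NK, B and erythroid markers lay between 0 and 7.96 CPM, mast cell and basophil markers between 0 and 22.5, and fibroblast and stromal markers between 0 and 14.9. In such bulk samples fewer cells of a type and less RNA per cell cannot be told apart.

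SeV added little to LPS. Against LPS alone, 10 genes (0.212% of those tested) passed an adjusted p of 0.05 by edgeR's quasi-likelihood F-test, 9 higher (0.191%) and 1 lower (0.0212%) with the pair, and 5 of them (0.106%) differed by at least 1 on the log2 scale. The 9 higher genes were Ifnb1, Rictor, Ppp1r15a, Cd69, Socs1, Fam26f, Iigp1, Serpina3g and Zyx, and the lower one was Trak1. An unadjusted p under 0.05 was reached by 283 genes, and the median standard error was 0.42 on the log2 scale, so modest differences of single genes were often not detectable at this depth. For 1925 of the 4720 genes the 95% interval of the difference lay wholly within 1 log2 unit of no difference.

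How many genes passed depended on the libraries fitted. In a fit of the 12 libraries of LPS, SeV, LPS + SeV and Ctrl in place of all groups, which also changed the genes tested and the scaling, 45 of 2548 genes passed against LPS, 35 higher and 10 lower, and 8 of the 10 were among them. Leaving out 1 library lowered the count to 4 without LPS replicate 1, 2 without LPS replicate 2, 5 without LPS replicate 3, 6 without LPS + SeV replicate 1, 2 without LPS + SeV replicate 2 and 7 without LPS + SeV replicate 3. Ifnb1 and Cd69 passed in all 6 of those fits.

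Ifnb1 encodes interferon beta, the cytokine that starts the antiviral response of both pathways. Its level was 193, 170 and 161 CPM in the LPS + SeV libraries, 0, 22.2 and 17.9 CPM in the LPS libraries, 248, 261 and 244 CPM in the SeV libraries and 13.9, 12.5 and 9.60 CPM in Ctrl. All pair libraries lay above all LPS libraries and below all SeV libraries. The difference from LPS was 3.48 on the log2 scale (SE 0.47, adjusted p 2.06e-08), and from SeV -0.53 (SE 0.28, adjusted p 0.238, 95% interval -1.08 to 0.02). The LPS libraries held 8 Ifnb1 molecules in all and overlapped Ctrl, while the pair libraries held 82.

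Fam26f, which RefSeq lists as Calhm6 and which encodes a membrane protein of the calcium homeostasis modulator family, was measured at 972, 1170 and 997 CPM with the pair. The LPS libraries held 573, 504 and 671 CPM, and the SeV libraries 440, 460 and 464 CPM. The pair exceeded every single-ligand library, by 0.84 over LPS (SE 0.17, adjusted p 0.00412) and by 1.20 over SeV (SE 0.19, adjusted p 3.47e-08). Over Ctrl at 57.0 ± 13.6 CPM, the gains of the single ligands sum to a level of 980 ± 86.0 CPM, against 1046 ± 108 CPM measured with both. The call against LPS was lost without LPS replicate 2 and without LPS + SeV replicate 2.

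Cd69, an early activation antigen that holds cells in tissue, was likewise highest with both ligands: 880, 988 and 942 CPM, against 476, 405 and 492 CPM with LPS and 592, 621 and 530 CPM with SeV. The difference was 1.03 over LPS (SE 0.18, adjusted p 5.32e-05) and 0.70 over SeV (SE 0.18, adjusted p 0.00177). Both Fam26f and Cd69 stayed short of a log2 difference of 1 over at least 1 of the singles.

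Socs1, Iigp1 and Serpina3g sat at the level of SeV alone. Socs1 feeds back on interferon signalling by blocking Janus kinases, and it measured 402, 478 and 378 CPM with the pair, 186, 205 and 237 CPM with LPS and 459, 337 and 352 CPM with SeV. Its difference from LPS of 0.98 (SE 0.21, adjusted p 0.00498) lost its call without LPS replicate 1, LPS replicate 2 or LPS + SeV replicate 2. Iigp1, an interferon-inducible GTPase, rose from 396 ± 44.7 CPM with LPS to 700 ± 157 CPM with the pair (log2 difference 0.82, SE 0.20, adjusted p 0.0307), beside 652 ± 151 CPM with SeV. Serpina3g, a serine protease inhibitor, rose from 1417 ± 177 CPM to 2341 ± 143 CPM (0.72, SE 0.18, adjusted p 0.0345), beside 2582 ± 268 CPM with SeV. Serpina3g lost its call in each of the 6 fits that left out an LPS or LPS + SeV library, and Iigp1 in all of them but that without LPS + SeV replicate 1; both also lost it with DESeq2 and with library size alone. Serpina3g belongs to a family of close copies, and reads may have been split among them.

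Zyx, which encodes the focal adhesion protein zyxin, lay between the singles without overlap of libraries. The values were 789, 798 and 926 CPM with LPS, 1349, 1334 and 1254 CPM with the pair, and 2208, 1993 and 1853 CPM with SeV. The pair was 0.64 above LPS (SE 0.14, adjusted p 0.00724) and 0.62 below SeV (log2 difference -0.62, SE 0.13, adjusted p 0.000131). The call against LPS was lost without LPS replicate 1 or 2, without LPS + SeV replicate 1 or 2 and with no filter on low counts.

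The other 3 genes were scarce. Ppp1r15a, the stress-induced subunit that directs a phosphatase to eIF2alpha, measured 134, 176 and 111 CPM with the pair, 44.7, 61.0 and 53.7 CPM with LPS and 47.8, 76.6 and 56.3 CPM with SeV. Rictor, a core subunit of mTOR complex 2, measured 83.8, 94.4 and 75.6 CPM with the pair, 22.3, 27.7 and 22.4 CPM with LPS, and 9.56, 53.7 and 32.8 CPM with SeV. Their pair libraries all exceeded those of either single, on 66 and 40 molecules. Trak1, an adaptor for mitochondrial transport, fell to 16.8, 12.6 and 15.1 CPM, on 7 molecules, from 89.3, 55.4 and 58.2 CPM with LPS (log2 difference -2.10, SE 0.53, adjusted p 0.0497). None of these 3 passed in any of the 6 fits that left out an LPS or LPS + SeV library, except Ppp1r15a without LPS + SeV replicate 3.

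**Figure D1:**
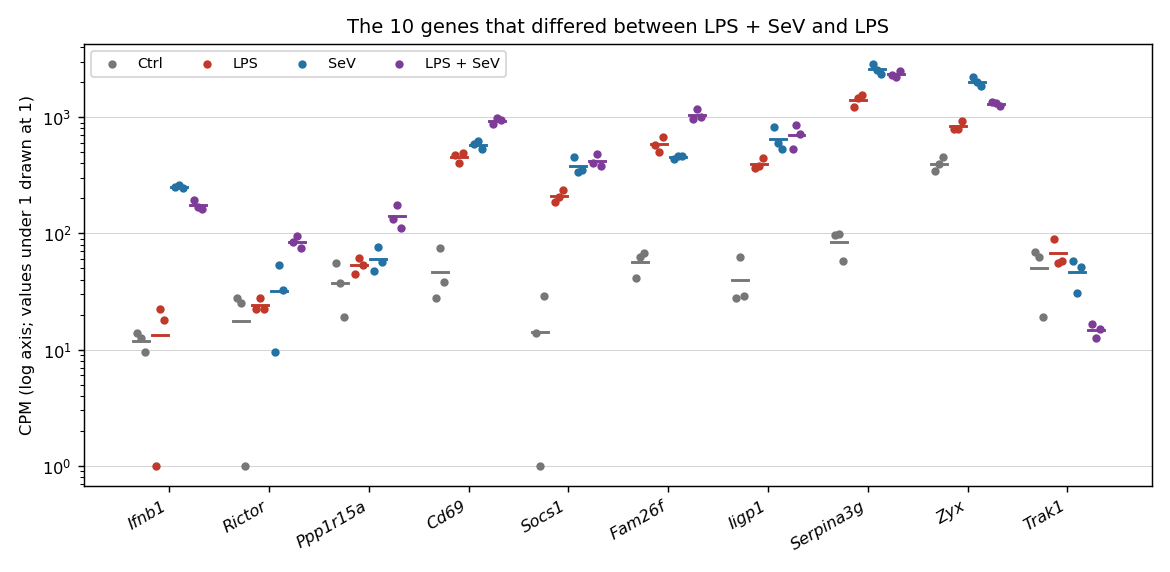
Level of the 10 genes that differed between LPS + SeV and LPS, in CPM on a log axis. Points are single libraries, 3 a group, and bars are group means; Ifnb1 with LPS overlaps Ctrl, and Fam26f and Cd69 are highest with both ligands.

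The promoters of Ifnb1 and Fam26f are shown with those of Cxcl10 and Il6, chosen after their values were seen: Ifnb1 differed from LPS, Fam26f from both singles, Cxcl10 was induced by either ligand, and Il6 by LPS. Each run is the 250 bases before the annotated start in RefSeq on GRCm38.p6, 5′ to 3′ on the gene's strand, with matches to the core of the interferon-stimulated response element (GAAA, any 2 bases, GAAA) or to a form of the kappaB site (GGGA, any 2 bases, TTCC) in capitals. Both strands were searched, and no match overlapped one of the other motif.
Ifnb1, chr4:88522795-88523044, minus strand: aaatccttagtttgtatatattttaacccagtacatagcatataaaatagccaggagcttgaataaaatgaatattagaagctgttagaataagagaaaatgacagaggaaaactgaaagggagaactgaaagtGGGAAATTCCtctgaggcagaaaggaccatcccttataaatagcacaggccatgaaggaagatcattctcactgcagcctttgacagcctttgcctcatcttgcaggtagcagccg
Fam26f, chr10:34127973-34128222, minus strand: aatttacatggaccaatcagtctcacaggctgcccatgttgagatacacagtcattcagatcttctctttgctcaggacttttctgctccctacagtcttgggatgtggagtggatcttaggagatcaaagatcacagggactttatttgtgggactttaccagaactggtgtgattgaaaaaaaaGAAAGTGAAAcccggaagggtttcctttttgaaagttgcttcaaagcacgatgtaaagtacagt
Cxcl10, chr5:92348890-92349139, minus strand: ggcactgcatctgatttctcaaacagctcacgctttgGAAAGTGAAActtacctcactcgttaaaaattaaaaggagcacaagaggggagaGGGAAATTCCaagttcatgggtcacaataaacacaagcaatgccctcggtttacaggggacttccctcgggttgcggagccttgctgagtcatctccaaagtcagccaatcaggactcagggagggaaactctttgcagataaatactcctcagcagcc
Il6, chr5:30012864-30013113, plus strand: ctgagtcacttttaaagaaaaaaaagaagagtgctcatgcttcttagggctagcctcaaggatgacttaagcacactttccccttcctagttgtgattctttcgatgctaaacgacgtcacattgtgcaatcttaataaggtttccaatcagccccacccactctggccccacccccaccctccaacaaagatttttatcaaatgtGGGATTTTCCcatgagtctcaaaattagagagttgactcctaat

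Among 32536 distinct RefSeq promoter windows of this length, 2.98% held the response element core, 1.21% the kappaB form and 0.0461% both. The Cxcl10 window held both, with the first base of the response element core 213 bases and that of the kappaB form 159 bases before the start. Of the searched letters, the Ifnb1 and Il6 windows held the kappaB form only, at 116 and 44 bases. The Fam26f window held the response element core only, at 64 bases. The search allowed 1 spacing between the GAAA runs. GAAA runs at another spacing, as just before the kappaB form in the Ifnb1 window, were not counted, so a window without a match may hold a related site. Of the 10 genes, 8 had a promoter entry: Fam26f, Ppp1r15a and Socs1 held the response element core and Ifnb1 the kappaB form. A match is a description of letters and does not show binding.

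LPS added much to SeV. Against SeV alone, 557 genes (11.8%) passed, 344 higher (7.29%) and 213 lower (4.51%) with the pair, and 362 of them (7.67%) differed by at least 1 on the log2 scale. Scaling by library size alone moved the median of all genes by -0.18 in this comparison and the split to 254 higher and 376 lower, so the share of higher calls depends on the scaling. The lower count was 140 without SeV replicate 3, LPS + SeV replicate 1 or LPS + SeV replicate 3, and 132 with no filter on low counts. The genes with the largest differences among those of at least 50 CPM and without overlap of libraries were 1600029D21Rik, Il12b, Batf, Il12a, Lad1 and Tarm1 above SeV, and Cd300a, Gadd45g, Sept9, Fli1, Lair1 and Plau below it.

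The subunits of interleukin 12, which directs T cells toward interferon gamma, stood among the largest. Il12a measured 176, 201 and 111 CPM with the pair, 127, 205 and 161 CPM with LPS, and 9.56, 15.3 and 9.38 CPM with SeV (pair over SeV 3.74, SE 0.47, adjusted p 9.59e-12). Il12b held 39 molecules with the pair, 32 with LPS and 1 with SeV, a ratio of pair to SeV of 36.7 with a counting interval of 6.21 to 1485. Batf, a bZIP transcription factor, held 44 molecules with the pair and 2 with SeV, a ratio of 20.7 (5.40 to 176). No molecule of 1600029D21Rik was counted with SeV against 30 with the pair, which is at least 9.40-fold higher when 3 molecules over the group are taken as the floor.

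On the lower side, Cd300a, an inhibitory receptor of myeloid cells, measured 8.38, 18.9 and 0 CPM with the pair, 44.7, 16.6 and 26.8 CPM with LPS, 162, 107 and 122 CPM with SeV and 263, 249 and 278 CPM in Ctrl. The pair was below every SeV library (-3.81, SE 0.59, adjusted p 2.8e-08) and overlapped LPS (-1.65, SE 0.78, adjusted p 0.77). Lair1, another inhibitory receptor, lost its call against SeV without SeV replicate 2.

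No gene was above both singles by at least 1 on the log2 scale at an adjusted p of 0.05, and none was below both, in edgeR's test on the larger of the 2 p-values (0% of 4720 each). At an unadjusted p under 0.05 with that fold, 13 genes lay above and 28 below both, and DESeq2 called 0 in either direction. Without a fold threshold, Fam26f was the single gene above both (0.0212%, adjusted p 0.0124) and none was below both. In the fit of the 12 libraries, 15 genes were above both singles without a fold threshold, among them Ccl4, Cxcl10, Ifit1, Il6, Cd69 and Fam26f. Dok2, an adaptor that restrains tyrosine kinase signalling, was below both in that fit. It differed by -2.11 from LPS and -2.60 from SeV, so it also passed the fold threshold there. Of the 21 ligand pairs in the series, 12 had at least 1 gene above both singles by this fold.

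The overlap of the ligands was read by setting a ligand's effect alone, over Ctrl, beside its effect on top of the other ligand; the 2 measures share no library. SeV alone changed 737 genes (15.6%) by at least 1 on the log2 scale, 495 higher (10.5%) and 242 lower (5.13%), and on top of LPS 7 of them (0.95%) moved the same way past an adjusted p of 0.05. None of the 737 moved the opposite way, and of all genes tested 0.212% passed on top of LPS in either direction. The 242 lower genes fell to 149 without Ctrl replicate 2, 152 without Ctrl replicate 3, 144 without SeV replicate 3 and 99 with no filter on low counts. The median of the 495 higher genes was 2.09 alone and 0.16 on top of LPS, and for 362 of them (73.1%) the 95% interval of the effect on top lay within 1 log2 unit of none. The 242 lower genes had medians of -1.68 alone and -0.22 on top, and this interval was as narrow for 40 of them (16.5%), so for most of these an effect on top was neither called nor bounded. Of all 737 genes, 526 (71.4%) had the same sign on top of LPS as alone, with a slope across genes of 0.11. In the fit of the 12 libraries the count past the threshold was 33 of 617. It fell to 3, 2 and 2 genes without LPS replicate 1, LPS replicate 2 and LPS + SeV replicate 2.

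LPS alone changed 1143 genes (24.2%), 690 higher (14.6%) and 453 lower (9.6%), and 354 of them (31.0%) moved the same way on top of SeV. Another 6 moved the opposite way, and of all genes tested 11.8% passed on top of SeV in either direction. The medians of the 690 higher genes were 2.14 alone and 0.51 on top of SeV, and those of the 453 lower genes -1.76 and -0.72. Without TMM factors, LPS raised 540 and lowered 765 genes over Ctrl and SeV raised 413 and lowered 362, with the median of all genes moved by -0.30 and -0.19. The count of the same way on top of SeV was then 361. With no filter on low counts, LPS lowered 284 genes.

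**Figure D2:**
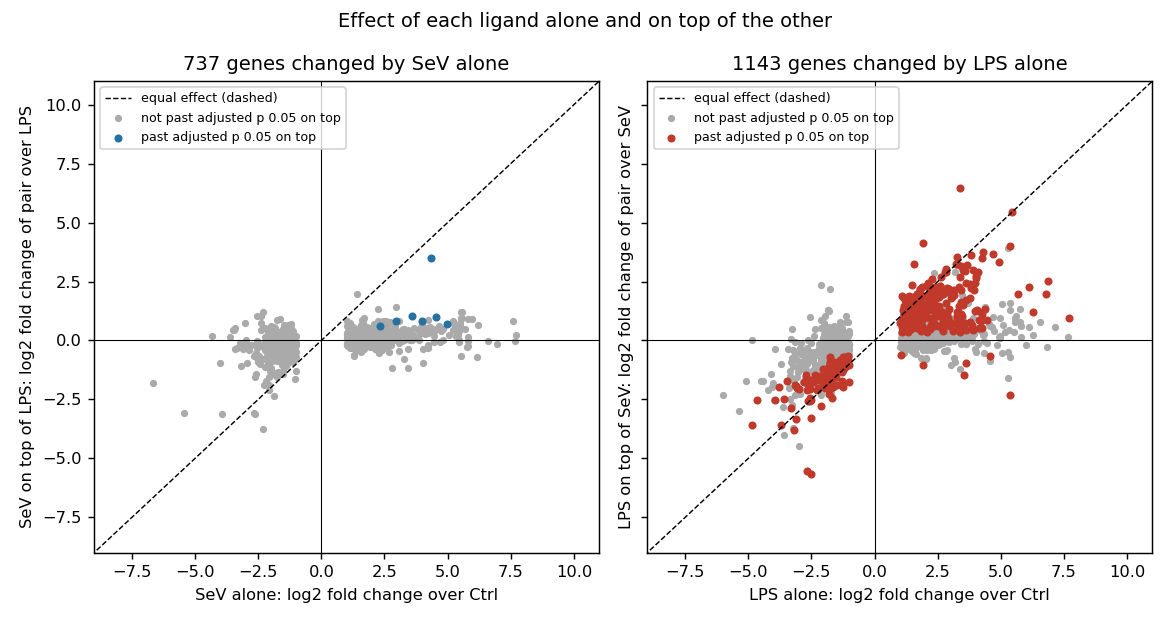
Effect of each ligand alone (x axis, log2 fold change over Ctrl) and on top of the other ligand (y axis, log2 fold change of the pair over that ligand). Each point is a gene changed by the ligand alone; the 737 SeV genes lie along a shallow slope of 0.11 on top of LPS with 7 past the threshold, while 354 of the 1143 LPS genes pass it in the same direction on top of SeV.

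The interaction, the effect of SeV with LPS present minus its effect alone, passed for 447 genes (9.47%), 373 negative (7.9%) and 74 positive (1.57%). The split was 325 negative and 114 positive with library size alone, 331 and 106 with RLE factors, and 400 and 15 with no filter on low counts. The 74 positive genes fell to 36 to 40 without any 1 of the Ctrl libraries, 40 without SeV replicate 3, 43 without LPS + SeV replicate 3, 44 without LPS replicate 3, 45 without SeV replicate 2 and 49 without LPS + SeV replicate 1. The 4 with the lowest p among the negative ones were Mx1, Gbp2, Cmpk2 and Ifit1, all interferon-induced antiviral genes, from -3.26 to -4.07. Mx1 RNA shows the form: 429, 499 and 250 CPM in Ctrl, 5858, 5420 and 5544 CPM with LPS, 6001, 5158 and 5154 CPM with SeV, and 6299, 6028 and 5934 CPM with both. Each ligand alone raised Mx1 to a like level, and the pair lay 0.12 above LPS (95% interval -0.12 to 0.36) and 0.16 above SeV (-0.07 to 0.40). The gains of the singles would sum to 10653 ± 553 CPM, against 6087 ± 189 CPM measured.

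The 4 most certain positive interactions were Neat1, Rps21, Gpx1 and Mmp12, genes that either ligand lowered. Gpx1 lost its call with no filter on low counts. Neat1, a nuclear long noncoding RNA, measured 2190 ± 118 CPM in Ctrl, 639 ± 38.2 with LPS, 910 ± 45.9 with SeV and 562 ± 54.1 with both. Gpx1, a glutathione peroxidase, measured 1860 ± 152, 551 ± 94.8, 1200 ± 44.8 and 625 ± 58.3 CPM in the same order.

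All 15 listed interferon-response genes were tested, and all 15 rose over Ctrl with either ligand, by medians of 3.87 with LPS and 3.83 with SeV. With the pair none passed against LPS, although the 15 differences were all positive, and their median was 0.43 against 0.02 over all genes. Scaled by library size alone, 14 of the 15 were positive. In the fit of the 12 libraries 8 of the 15 passed as higher than LPS: Cmpk2, Cxcl10, Ifit1, Ifit2, Ifit3, Oasl1, Rsad2 and Usp18, with log2 differences of 0.37 to 0.51. Against SeV 5 of 15 were higher (median 0.39, lowest -0.35), or 3 higher and 1 lower with library size alone, and the interaction was negative for 15 of 15 (median -3.64). Of all genes tested, with no fold threshold, 17.1% rose over Ctrl with LPS and 12.2% with SeV. The pair was higher than SeV in 7.29% of them, and the interaction was negative in 7.9%. In the fit of the 12 libraries 35 of 2548 genes were higher than with LPS.

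Cxcl10, a chemokine that draws T and NK cells, measured 10245, 9734 and 10469 CPM with the pair. The LPS libraries held 6774, 7493 and 7647 CPM, the SeV libraries 7263, 7105 and 6923 CPM and Ctrl 305, 511 and 336 CPM. No library of either single reached the pair's lowest value, and the pair differed by 0.47 over LPS (SE 0.16, adjusted p 0.392, and 6.86e-08 in the fit of the 12 libraries) and by 0.52 over SeV (SE 0.16, adjusted p 0.0205). The call against SeV was lost with DESeq2, with library size alone and without SeV replicate 2, SeV replicate 3 or LPS + SeV replicate 3. Ifit1, which binds viral RNA lacking cap methylation, measured 5341 ± 132 CPM with the pair, 3818 ± 253 with LPS (adjusted p 0.101) and 3760 ± 314 with SeV (adjusted p 0.00286). The call against SeV was lost with library size alone and without SeV replicate 3.

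Interferon-inducible GTPases, a list that shares Mx1 and Mx2 with the interferon-response list, gave calls against each single. Of 15 tested, 1, Iigp1, passed as higher than LPS (median 0.29, 15 positive, beside 0.191% of all genes). Against SeV 3 passed as higher, namely Gbp2, Gbp3 and Gbp5 (beside 7.29% of all genes), where the differences ran from -1.04 to 1.12 with a median of 0.23. With library size alone the latter were 3 higher and 1 lower with a median of 0.05. All 15 rose over Ctrl with either ligand, and 14 of 15 had a negative interaction. Several Gbp genes are close copies, and their counts may share reads. Of 15 RNA sensors and adaptors none passed against LPS (median 0.23), 3 were higher than with SeV (Ifih1, Tlr7 and Tank) and 9 had a negative interaction, beside 7.29% and 7.9% of all genes. With RLE factors, library size alone or DESeq2, 2 of the 15 were higher than with SeV. Ifih1, the sensor MDA5, measured 1140 ± 47.6 CPM with LPS, 1205 ± 9.24 with SeV and 1638 ± 88.0 with both. Its call against SeV (0.44, SE 0.15, adjusted p 0.0274) was lost in 8 alternatives, and it passed against LPS in the fit of the 12 libraries. Ddx58 itself measured 640 ± 87.1, 650 ± 23.0 and 734 ± 79.2 CPM, with no call against either single.

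Inflammatory genes followed LPS. Of 13 tested, 12 were higher with the pair than with SeV (median 1.66 against 0.01 over all genes), beside 7.29% of all genes. None passed against LPS (median -0.03). Il1b, the pyrogenic cytokine interleukin 1 beta, measured 3242, 3278 and 3038 CPM with the pair, 3432, 3636 and 3477 CPM with LPS and 506, 337 and 385 CPM with SeV. The pair was 2.98 above SeV (SE 0.15, adjusted p 1.01e-47) and -0.14 from LPS, with an interval of -0.38 to 0.09. Tnf measured 4666 ± 57.8 CPM with the pair, 4438 ± 66.6 with LPS, 1793 ± 28.5 with SeV and 856 ± 254 in Ctrl.

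Il6, the fever-inducing cytokine whose promoter is printed above, measured 2036, 1630 and 1713 CPM with the pair, 1370, 1086 and 1342 CPM with LPS, 182, 138 and 150 CPM with SeV and 97.0, 99.8 and 182 CPM in Ctrl. The pair libraries did not overlap those of LPS, and the difference of 0.50 (SE 0.14) had an adjusted p of 0.148, or 0.000577 in the fit of the 12 libraries. In that fit Cxcl2, a neutrophil chemokine, was lower than with LPS by 0.43 (log2 difference -0.43).

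Over all genes tested, 7.29% were higher and 4.51% lower with the pair than with SeV, and 0.191% were higher than with LPS. Against SeV 9 of 14 maturation and costimulation genes were higher (median 0.85), and against LPS 1, Cd69; among the 9 was Cd40, which receives T cell help, at 1806 ± 47.0 CPM with the pair, 1538 ± 51.0 with LPS and 413 ± 62.8 with SeV. Of 18 brakes on signalling 9 were higher than with SeV, such as Socs3 at 341 ± 46.8 against 72.7 ± 28.5 CPM, and 1, Socs1, was higher than with LPS. Of 16 metabolic and host-defence genes 10 were higher than with SeV (median 1.72) and none passed against LPS. They included Slc7a2, an arginine importer, at 1936 ± 48.0 against 424 ± 46.7 CPM, and Saa3, an acute-phase protein, at 3647 ± 634 against 412 ± 53.8 CPM. In the fit of the 12 libraries Saa3 was lower than with LPS by 0.27 (log2 difference -0.27, adjusted p 0.0351).

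MHC class I presentation genes rose over Ctrl with either ligand, 13 of 14 with LPS (median 1.86) and 13 of 14 with SeV (median 1.41), and 12 of 14 had a negative interaction (median -1.37). Over all genes, with no fold threshold, 17.1% rose with LPS and 12.2% with SeV, and 7.9% had a negative interaction. With the pair 5 of 14 were higher than with SeV (Psme2 by 1.20, and H2-K1, B2m, Tapbp and Psmb10 by 0.37 to 0.53) and none passed against LPS. Scaled by library size alone, 1 of 14 was higher. MHC class II gave 1 of 7 against SeV, near the share of 7.29% over all genes, H2-Eb1 by 0.40, or 0 higher and 1 lower with library size alone. Nos2, the inducible nitric oxide synthase, was scarce, at 83.8, 94.4 and 141 CPM with the pair, 14.9, 72.0 and 98.4 CPM with LPS and 0, 15.3 and 18.8 CPM with SeV, and the pair exceeded SeV (2.98, SE 0.57, adjusted p 1.64e-05). Of 22 transcription factors 6 were higher than with SeV: Stat3, Nfkb1, Nfkb2, Rel, Batf and Cebpb. The counts were 6 higher and 1 lower with RLE factors or library size alone, and 5 and 1 with DESeq2.

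**Figure D3:**
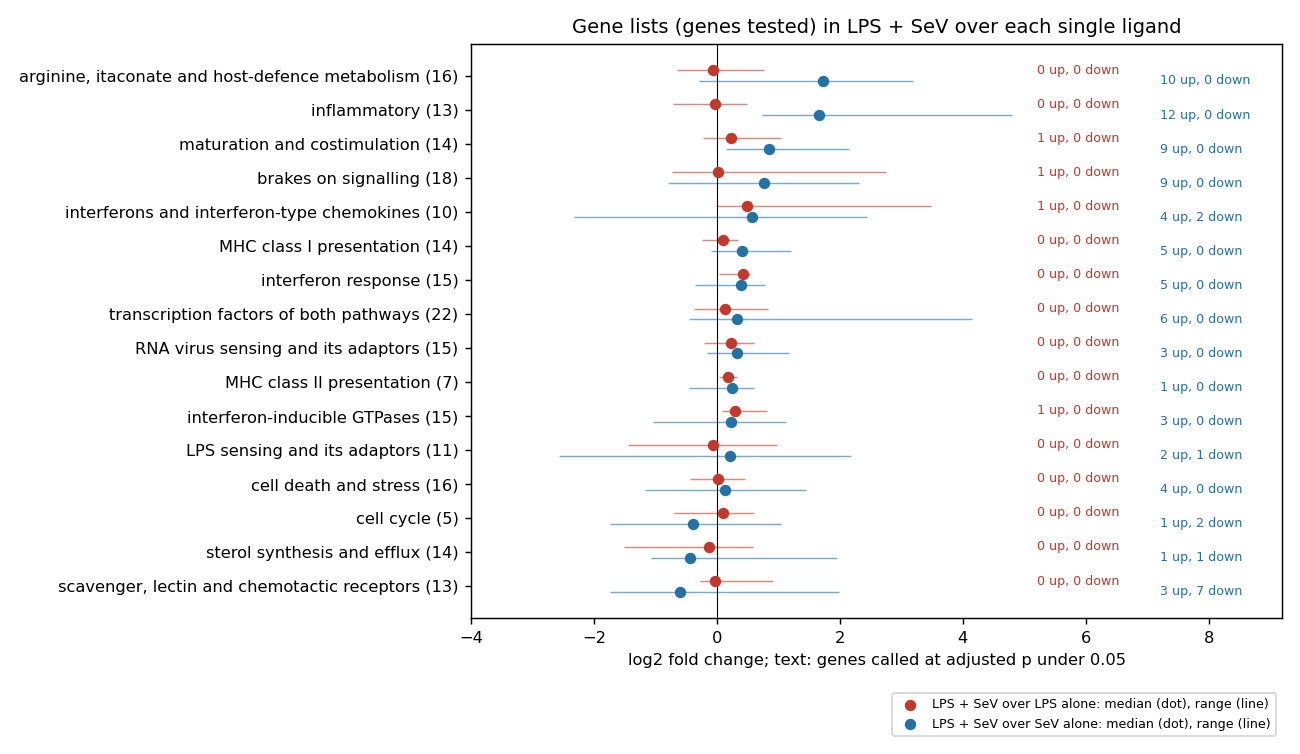
Median (dot) and range (line) of the log2 fold change of LPS + SeV over each single ligand for 16 gene lists, with the genes tested in brackets and the genes called beside them. Medians over LPS lie between -0.14 and 0.48, while those over SeV reach 1.72 for host-defence metabolism and 1.66 for the inflammatory list.

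The other lists are read against the same shares of 7.29% higher and 4.51% lower than with SeV. Of 11 genes of LPS sensing, 2 were higher than with SeV (Cd14 and Irak3), 1 was lower (Irak4) and none passed against LPS. The lower count was 0 with DESeq2 and 2 with library size alone. Cd14, the co-receptor that hands LPS to Tlr4, measured 1181, 1114 and 1058 CPM with the pair, 1385, 1236 and 1253 CPM with LPS, and 229, 176 and 305 CPM with SeV, so the pair libraries lay just below those of LPS and far above those of SeV (2.17, SE 0.18, adjusted p 3.27e-23). Of 14 sterol genes Ch25h was higher than with SeV and Abcg1 lower. Ch25h, which makes an antiviral oxysterol, measured 687, 566 and 680 CPM with the pair, 417, 427 and 465 CPM with LPS and 191, 215 and 117 CPM with SeV, with no overlap and an adjusted p against LPS of 0.42, or 0.0267 in the fit of the 12 libraries. Cell death genes gave 4 of 16 above SeV, among them Casp4, Cflar and Gadd45b. Of 17 cell cycle genes 5 could be tested, and H2afz was higher and Pcna and Mcm6 lower than with SeV. The counts were 0 higher and 2 lower with library size alone and 0 and 1 with DESeq2.

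Where the singles themselves differed, the pair mostly took the level of LPS. LPS and SeV differed by at least 1 on the log2 scale in 372 genes (7.88%), 222 higher with LPS (4.7%) and 150 higher with SeV (3.18%), the latter 99 without SeV replicate 3. These groups share libraries with the pair comparisons, so the following is a description. For the 222 genes the median of pair minus LPS was -0.07, and 180 were called against SeV and 0 against LPS. For the 150 genes higher with SeV, the median of pair minus LPS was 0.20 and of pair minus SeV -1.36, and 95 were called against SeV and 2 against LPS. Among the 5 largest of the former were Il12b, Lad1, Il12a and Batf, and the 5 largest of the latter were Ifnb1, Lpxn, Homer1, Nceh1 and Ccnd1.

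Of 10 interferons and interferon-type chemokines, 4 were higher (Cxcl10, Ccl3, Ccl4 and Ccl5) and 2 lower (Cxcl9 and Ccl12) than with SeV, and 1, Ifnb1, was higher than with LPS. Of all genes tested, 7.29% were higher and 4.51% lower than with SeV, and 0.191% were higher than with LPS. Ccl5 measured 28827 ± 1618 CPM with the pair, 27029 ± 1717 with LPS and 5328 ± 558 with SeV. Ccl4, a chemokine of macrophages and dendritic cells, measured 6115, 5908 and 5950 CPM with the pair, above 4213, 4090 and 4291 CPM with LPS (0.51, SE 0.15, adjusted p 0.211) and 3383, 3035 and 2964 CPM with SeV (0.94, SE 0.16, adjusted p 4.2e-07). The pair libraries overlapped neither single. Ccl12, a monocyte attractant, went the other way, at 25.1, 37.8 and 25.2 CPM with the pair, 29.8, 38.8 and 22.4 CPM with LPS, and 115, 161 and 164 CPM with SeV. No Ctrl library held a Ccl12 molecule, and the pair lay -2.33 from SeV (SE 0.46, adjusted p 2.6e-05), so all pair libraries lay below all SeV libraries and overlapped LPS. Ccl12 has close copies, and its counts may share reads. Cxcl9, a T cell attractant, lay between, at 293, 289 and 307 CPM with the pair, 119, 139 and 188 CPM with LPS and 698, 621 and 469 CPM with SeV. It passed as higher than LPS in the fit of the 12 libraries (0.92, adjusted p 0.0023).

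Receptor genes went both ways: of 13 tested, 7 were lower and 3 higher with the pair than with SeV, beside 4.51% and 7.29% of all genes. None passed against LPS. LPS alone lowered 7 and raised 4 over Ctrl, beside 12.9% and 17.1% of all genes. Clec7a, the beta-glucan receptor dectin-1, measured 343, 308 and 353 CPM with the pair, 268, 299 and 358 CPM with LPS, 793, 927 and 877 CPM with SeV and 975 ± 127 CPM in Ctrl. The chemokine receptors Ccr1 and Ccr2, the mannose receptor Mrc1, Cd36 and Clec4n were among the other lower ones, and Clec4e, Fpr1 and Fpr2 the higher ones. The macrophage and monocyte marker sum given above moved with them, since Csf1r stood at 543 CPM and Lyz2 at 6283 CPM in LPS + SeV against 1377 and 8005 CPM in SeV, and its part in the result was not tested.

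**Figure D4:**
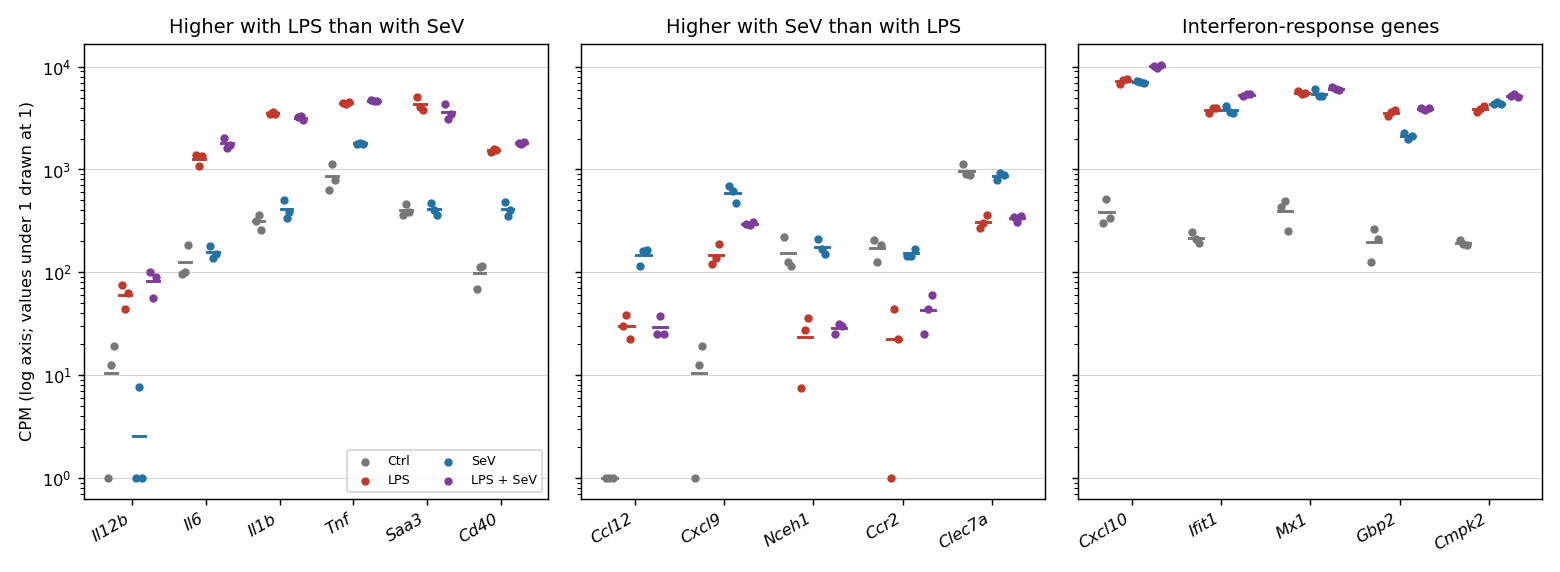
Level in CPM on a log axis of genes higher with LPS than with SeV, genes higher with SeV than with LPS, and interferon-response genes. Points are single libraries and bars group means of 3. In the first panel the pair lies near the LPS level, with Il6 and Cd40 somewhat above it. The pair lies at or near the LPS level for Ccl12, Nceh1 and Clec7a, and a little above both singles for Cxcl10 and Ifit1.

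Other pairs gave a scale for these counts. Added to LPS, Zymosan changed 251 genes (5.32%), cGAMP 226 (4.79%), PAM 4.07% of the genes, CpGB 118 (2.5%), SeV 10 and HMW 0 (0%, with 218 genes at an unadjusted p under 0.05 by edgeR's test). SeV changed 918 genes (19.4%) when added to PAM and 913 (19.3%) when added to HMW, but 2 (0.0424%) when added to cGAMP. Of all 42 additions of 1 ligand to another, 5 changed fewer genes than SeV added to LPS. These counts rest on separate libraries of different depth, and their differences were not tested except for PAM.

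SeV had different effects on top of LPS and on top of PAM in 423 genes (8.96%), 375 of them (7.94%) less positive on top of LPS and 48 (1.02%) more. Scaled by library size alone the split was 297 and 127. The 48 fell to 22 without LPS + SeV replicate 3, 26 without LPS replicate 3, 29 without PAM + SeV replicate 2, 31 without PAM replicate 3, 24 with DESeq2 and 17 with no filter on low counts. Cxcl11, an interferon-induced chemokine, was among the 3 largest of the former, with BC147527 and Slc28a2. It measured 155 ± 6.01 CPM with LPS and 185 ± 26.8 with LPS + SeV, against 1.68 CPM with PAM and 74.0 with PAM + SeV (difference of the effects -4.70). The PAM level is near the floor, so the size of this difference is uncertain. The difference ran from -6.51 to -2.95 over the alternatives and lost its call with libraries thinned to the lowest total. Zadh2, Ampd3 and Mvd led the latter at levels under 25 CPM with LPS and with the pair, and lost their calls in 7, 8 and 10 of 16 alternatives.

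LPS + SeV and LPS + cGAMP, a pair whose second ligand is sensed by Sting1, differed by at least 1 on the log2 scale in 84 genes (1.78%), 29 higher (0.614%) and 55 lower (1.17%) with SeV. The higher count was 18 without LPS + cGAMP replicate 2. The 3 largest on the lower side included Plagl1, a zinc finger factor, at 82.7 CPM with LPS + cGAMP and 1 molecule with LPS + SeV, beside Intu and Mycl1. Mycl1 lost its call without LPS + SeV replicate 3 and without LPS + cGAMP replicate 2. Dhrs3, Pou2f2 and B630005N14Rik led the higher side, and each lost its call without at least 1 library.

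SeV was also added to LPS in the presence of a further ligand, in libraries separate from those above; this check was chosen after the values were seen. With HMW 3 genes changed (0.0636%), with PAM 4 (0.0847%), and with Zymosan, cGAMP or CpGB 0 each (0%) by edgeR's test, with at most 277 genes at an unadjusted p under 0.05 in any of the latter and no other tool run. Ifnb1 was 16.8 ± 6.62 CPM with LPS + HMW and 155 ± 20.5 with SeV added (3.19, SE 0.47, adjusted p 4.8e-07), and 37.0 ± 18.9 and 169 ± 59.3 CPM with PAM (2.21, SE 0.40, adjusted p 0.000474). With Zymosan, cGAMP and CpGB the levels were 32.2, 123 and 186 CPM without SeV and 90.7, 197 and 211 CPM with it, and none passed. Serpina3g rose from 1252 ± 275 to 2301 ± 316 CPM with HMW (0.85, SE 0.18, adjusted p 0.00422).

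Fam26f, above both singles in the pair, did not pass in any of the 5 settings and was lower on average with SeV in 4 of them. Of the 10 genes, 9 kept their direction with HMW, 7 with Zymosan and with CpGB, 6 with cGAMP and 4 with PAM. LPS added to SeV changed from 83 genes (1.76%, with PAM) to 615 genes (13%, with cGAMP) in the same settings.

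**Figure D5:**
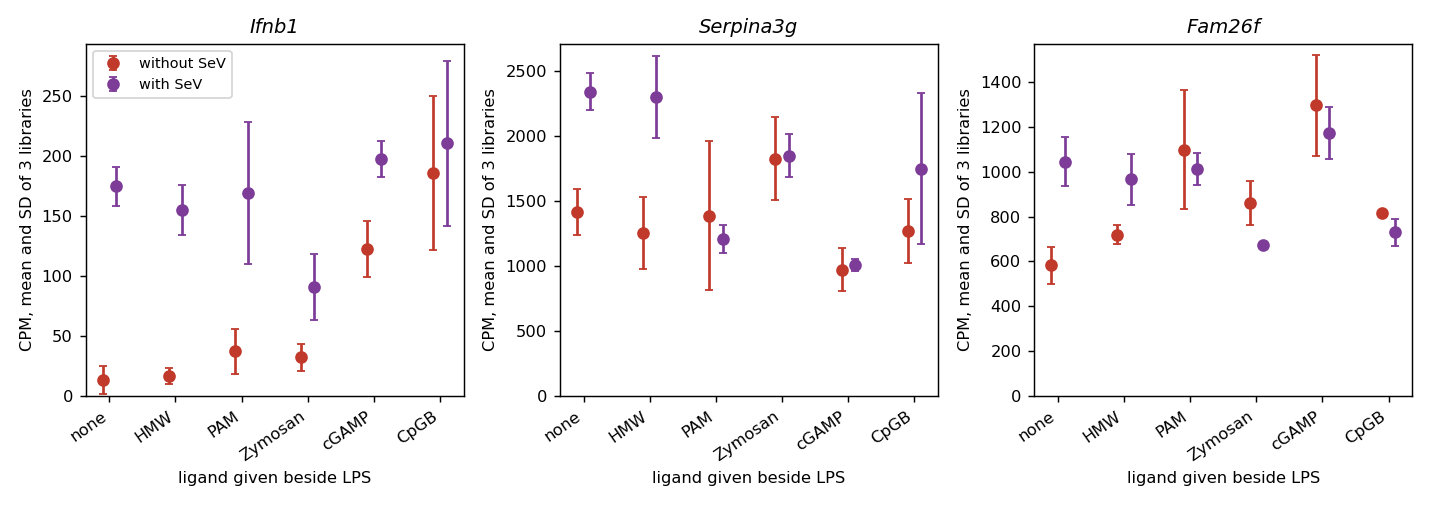
Mean and SD of 3 libraries, in CPM from 0, of Ifnb1, Serpina3g and Fam26f in cells given LPS without SeV or with SeV, alone or beside a further ligand. SeV raised Ifnb1 beside HMW and PAM, and the Fam26f mean was lower with SeV beside PAM, Zymosan, cGAMP and CpGB.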

How the data were processed

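The authors deposited counts of UMIs per gene for 192 libraries, per the labels from mouse bone marrow-derived dendritic cells, 3 libraries in each of 64 groups. Reads were aligned with BWA 0.7.15 to mm10, per the submitters' processing notes; the counting tool is not given in the sources used here, nor whether counting used strand. From the counts, edgeR 4.0.16 (R 4.3.3) fitted 1 coefficient per group over all libraries, with filterByExpr, TMM factors and the quasi-likelihood F-test with Benjamini-Hochberg adjustment over 4720 genes, which held 95.7% of counts. The interaction was LPS + SeV minus LPS minus SeV plus Ctrl. Standard errors are the log2 difference over the square root of F. A gene was above (or below) both singles by the larger p of both contrasts. Ratios from counts have exact 95% intervals, and intervals and floors cover counting error only. The script was tested on simulated data. Promoters came from RefSeq; of 4720 tested genes 4468 matched by symbol and 237 more by synonym.

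The pair and the gene lists were chosen with earlier results of these data known. Genes are named by rule: the 6 largest calls each way for the pair against each single (at least 50 CPM, libraries not overlapping), 5 for LPS against SeV, 4 lowest p each way for the interaction, 3 for the 2 other comparisons, and 15 by name; Iigp1, Serpina3g and Zyx complete the calls against LPS, and other list members were picked as examples after their values were seen. In LPS, SeV, LPS + SeV and Ctrl, the groups checked, each replicate pair differed by more than sampling noise. Alternatives were RLE factors, library size alone, no low-count filter, DESeq2 1.42.0, a replicate block, thinning to the lowest total, the fit of 12 libraries, the other fold threshold and each library left out. Some members of the lists are counted but not reported here by name.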

Additional observations from a re-analysis of the deposited data

Results flagged for a closer look

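The effect of SeV differed between cells with and without LPS: the interaction term passed an adjusted p of 0.05 in 447 genes by edgeR's quasi-likelihood F-test, 373 of them negative. The effect of SeV also differed between cells given LPS and cells given PAM, with 423 genes passing the test of that difference. Mx1 and Cxcl11 are described with these counts above. Groups of 3 libraries were not searched for single outlying samples.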

How the results depend on the processing

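The count of LPS + SeV against LPS moved under many alternatives: 5 with the fold threshold, 5 with library size alone, 6 with no filter on low counts, 6 with DESeq2, 45 in the fit of the 12 libraries, and 2 to 7 with each LPS or LPS + SeV library left out (9 or 10 without a library of another group). RLE factors gave 10. With or without a fold threshold, as the case may be, the other counts that moved were 362 for LPS + SeV against SeV, 560 for LPS against SeV, 136 against LPS + cGAMP, 1 above both singles and 2 SeV genes that moved the same way on top of LPS. That last count was 33 in the fit of the 12 libraries and 2 to 7 with each library left out, and below both singles it was 1 in the fit of the 12 libraries. With every library thinned to the lowest total of 46564 molecules the counts were 0 against LPS, 45 against SeV, 59 for the interaction, 37 for LPS against SeV, 245 for LPS and 130 for SeV over Ctrl, 5 against LPS + cGAMP, 40 for SeV on LPS against SeV on PAM, and 0 SeV and 36 LPS genes that moved the same way, so depth limits what was called. Why the other counts moved was not tested.

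Of 62 named gene results past the threshold, 21 stayed past it in all alternatives that gave a value and 41 did not in at least 1. Thinning turned Dhrs3 against LPS + cGAMP to -0.0158, Nos2 against LPS to -0.2148 and Ifnb1 against SeV to 0.4146. Il10 against SeV, 0.74 as reported, ran from -2.01 without LPS + SeV replicate 1 to 2.75 without SeV replicate 2, and was below 0 without SeV replicate 3 as well.

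Replicate numbers did not meet the bar set for pairing, a correlation over 0.1 in every pair: over 18 same-numbered pairs the correlation of deviations ran from -0.0244 to 0.103, and in 12 of the 18 the first library correlated best with its own number in the other group, a hint of a weak shared effect from the data, not the design. With the replicate block 12 genes passed against LPS, 576 against SeV and 456 for the interaction, and no count moved by over 1.5 times.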
